A study of Mus musculus with 6 samples.

Results

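The 10 genes described here encode the 4 ID proteins (Id1, Id2, Id3 and Id4) and 6 inhibitors of SMAD signalling: the inhibitory SMADs Smad6 and Smad7, the corepressors Ski and Skil, and the ubiquitin ligases Smurf1 and Smurf2. They were taken by name from the 22180 genes on the arrays, 10 of 22180, and each was read by 1 probe set that names no other gene. RNA came from cumulus-oocyte complexes (COCs), in which an immature oocyte is enclosed by somatic cumulus cells, of wildtype female mice. The mice had received 5 IU of eCG, equine chorionic gonadotropin, 46 h before, which makes follicles grow. The COCs, 100 to a group, were kept in culture with Torin1 (5 µM), a drug that blocks the ATP site of the MTOR kinase, in 3 samples and with its vehicle DMSO in the other 3. All samples shared a medium with 3 mg/ml of albumin and 5 µM of milrinone, a PDE3 inhibitor that holds the oocyte in meiotic arrest. The labels state the age as 21 or 23 days and the culture as 14 or 16 h, and leave unsaid whether samples came from separate mice or days. The p-values here therefore reflect the spread among these samples alone, and part of it may be technical.

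Ligands of the TGF-beta family bind pairs of type I and type II receptors, which phosphorylate SMAD proteins that then enter the nucleus with SMAD4. SMAD1, SMAD5 and SMAD9 carry signals of bone morphogenetic proteins (BMPs), and SMAD2 and SMAD3 carry those of activins, TGF-betas and GDF9, which the oocyte secretes towards its cumulus cells. ID genes are classic BMP targets whose products lack a DNA-binding region and hold E proteins away from DNA, while the SMAD inhibitors act as a brake, and several are themselves induced by the pathway.

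With Torin1, Id1, Id4 and Skil rose and the other 7 genes were not called. A call means an adjusted p below 0.05 in limma, adjusted over all 22180 genes. None of the 10 was called lower, whereas 4 had an unadjusted p below 0.05 in limma, all of them with a change above 0. The share of all genes below that unadjusted cut was not counted. Unadjusted counts, here and in the lists below, therefore have no background beside them. Over all genes 12.1% were called, 5.13% higher and 6.94% lower. All 10 genes lay above the median gene in mean level, whereas shares over all genes cover every level. The change was above 0 for all 10 genes, with a median of 0.24 on the log2 scale, beside 52.8% of all genes and a median of 0.01. Values of the groups did not overlap for 5 of the 10 (Id1, Id4, Smad7, Skil and Smurf2), where 28.6% of all genes showed no overlap. All values below are log2(intensity + 1) unless stated, a scale that understates the change of dim genes, and a change is the Torin1 mean minus the DMSO mean, with its SE (standard error).

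**Figure D1:**
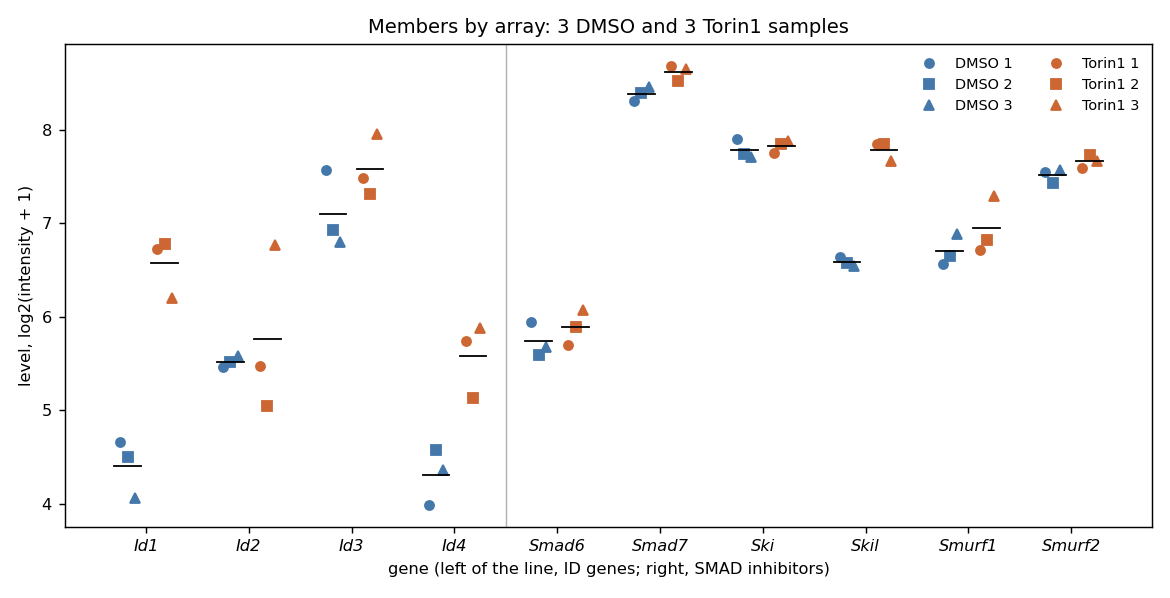
Level of each of the 10 genes as log2(intensity + 1) on the vertical axis, by gene on the horizontal axis; points are single arrays (blue DMSO, orange Torin1, shape for the sample number) and bars are means of 3. Id1, Id4 and Skil lie wholly higher with Torin1, and Id2 in Torin1 sample 3 stands at 6.76 above all other Id2 values; probe sets differ, so heights are to be compared within a gene only.

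Of the data as a whole, array medians ran from 11.12 to 11.97 intensity units. Torin1 sample 3 stood apart from the other Torin1 arrays: the SD of its log2 differences from them over genes was 0.327 and 0.350, where samples 1 and 2 differed with an SD of 0.204. Its description carries the short name of Torin1 sample 2. Both compartments of the complex were present, with all 18 oocyte markers and all 14 cumulus and granulosa markers above the median gene (4.17). The summed intensity of the oocyte markers was 7769 to 8209 in DMSO and 8613 to 9540 in Torin1, and that of the cumulus and granulosa markers was 6540 to 7017 and 3784 to 4436. Of the latter 12 of 14 were called lower and 1 higher, while 2 of the 18 oocyte markers, Dppa3 and Figla, were called higher (0.31 ± 0.07 and 0.38 ± 0.09); Dppa3 was called in none of the 6 fits that leave out an array (adjusted p 0.0605 to 0.118). The labels describe the oocytes as silent in transcription and the cumulus cells as active. The cumulus and granulosa markers changed unequally, from -3.997 (Amhr2) to 2.06 (Inhba), with a median of -1.34. In such whole complexes fewer cells of a type and less RNA per cell cannot be told apart, and changes particular to single genes were not tested.

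Id1, the ID gene most often used as a readout of BMP signalling, had the largest change among the 10. It read 4.66, 4.50 and 4.07 in DMSO samples 1, 2 and 3, and 6.73, 6.78 and 6.20 in Torin1 samples 1, 2 and 3. Every Torin1 value lay above every DMSO value, with a gap of 1.55 between the groups. Id1 rose by 2.16 ± 0.20 (adjusted p = 0.000982), or 4.47-fold. In plain intensity it stood between 15.8 and 24.2 in DMSO and between 72.7 and 108.8 in Torin1. The size of this change exceeded that of 99.4% of genes.

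Id4, the ID gene studied mostly in neural and germ-line stem cells, rose as well. It read 3.99, 4.57 and 4.36 in DMSO and 5.74, 5.13 and 5.88 in Torin1. The groups were separated by 0.56, and the lowest Torin1 value was that of sample 2. Its change was 1.28 ± 0.23 (adjusted p = 0.0123), or 2.42-fold. The DMSO means of Id4 (4.31) and Id1 (4.41) lay close to the median gene, so the size of both rises is less certain than their direction.

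Id2 and Id3, the other ID genes, were not called. Id2 read 5.47, 5.51 and 5.57 in DMSO, a range of 0.108. In Torin1 it read 5.48, 5.05 and 6.76, a range of 1.71, so that sample 3 alone lay above the DMSO values and sample 2 lay below them. Its change was 0.24 ± 0.39 (adjusted p = 0.820), with a 95% interval from -0.69 to 1.17, and without Torin1 sample 3 it was -0.26 ± 0.13 (adjusted p = 0.313). The direction of Id2 therefore rests on that array.

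Id3, which is often co-regulated with Id1, read 7.56, 6.93 and 6.79 in DMSO and 7.48, 7.31 and 7.95 in Torin1. DMSO sample 1 lay within the Torin1 values. The change was 0.49 ± 0.24 (adjusted p = 0.281; 95% interval -0.07 to 1.05), and it was 0.72 ± 0.19 without DMSO sample 1 (adjusted p = 0.0893) and 0.30 ± 0.22 without Torin1 sample 3 (adjusted p = 0.511).

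The stretch of 250 bases before the transcription start is shown for the ID genes found in the RefSeq promoter table (build GRCm38.p6), to set the gene that rose, Id4, beside Id2 and Id3. Of the 10 genes 7 were in that table; Id1, Skil and Smad7 were not. Each is written 5′ to 3′ on the strand of the gene, with capitals for GGCGCC, a GC-rich element known from BMP-responsive promoters, and for TGACG, the core of the cAMP response element, on either strand.
Id4 (chr13:48260866-48261115, plus strand): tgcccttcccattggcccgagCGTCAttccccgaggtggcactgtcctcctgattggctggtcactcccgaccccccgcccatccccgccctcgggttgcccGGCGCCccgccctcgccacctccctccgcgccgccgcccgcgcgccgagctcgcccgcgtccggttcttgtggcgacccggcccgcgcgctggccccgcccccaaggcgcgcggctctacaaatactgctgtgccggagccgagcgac
Id2 (chr12:25096093-25096342, minus strand): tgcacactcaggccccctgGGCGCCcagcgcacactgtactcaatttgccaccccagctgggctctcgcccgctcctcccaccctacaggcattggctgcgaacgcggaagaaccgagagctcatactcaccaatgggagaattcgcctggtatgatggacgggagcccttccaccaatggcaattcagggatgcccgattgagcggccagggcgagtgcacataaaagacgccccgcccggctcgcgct
Id3 (chr4:136143572-136143821, plus strand): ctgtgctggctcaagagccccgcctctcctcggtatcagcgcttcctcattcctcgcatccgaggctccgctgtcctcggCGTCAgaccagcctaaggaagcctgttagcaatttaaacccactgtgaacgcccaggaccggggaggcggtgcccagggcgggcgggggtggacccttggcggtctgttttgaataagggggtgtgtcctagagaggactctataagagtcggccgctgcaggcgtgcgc
GGCGCC was found once in Id4, 148 to 143 bases before the start, and once in Id2, 231 to 226 bases before it, and not in this window of Id3. TGACG was found once in Id4 and once in Id3, at 229 to 225 and 170 to 166 bases before the start. Among all 32851 promoter windows of this length in the table, 9.59% held GGCGCC and 17.8% held TGACG. Of the 7 windows 4 held GGCGCC (Id2, Id4, Ski and Smurf2) and 2 held TGACG. These windows are rich in G and C (62.8% in Id2 and in Id3, 75.6% in Id4, up to 87.6% in Ski, beside a median of 52.4% over all windows), which bears on how often such letters occur. The shorter SMAD-binding core GTCT, of which 1 match in Id3 overlaps its TGACG match by 1 base, was present in 5 of the 7 windows and in 82.9% of all. The E-box CANNTG, the site of the E proteins that ID proteins bind, occurred in 1 of the 7 (Id2), against 66.2% of all windows, and CAGACA, a SMAD3-binding box that contains this core on the other strand, in 1 of the 7 (Smurf1), against 17.1%. Each motif was searched on both strands, and a match describes letters only.

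Skil, which encodes the corepressor SnoN that silences SMAD2, SMAD3 and SMAD4 target genes, had the smallest SE of the 3 called genes. It read 6.64, 6.58 and 6.54 in DMSO and 7.84, 7.85 and 7.66 in Torin1. The gap between the groups, 1.02, was several times the range within either group (0.0996 in DMSO and 0.183 in Torin1). Skil rose by 1.20 ± 0.08 (adjusted p = 0.000315), or 2.29-fold, from intensities of 92.3 to 98.9 to intensities of 201.8 to 229.2.

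Ski, its closest relative and also a SMAD corepressor, was not called. It read 7.90, 7.74 and 7.70 in DMSO and 7.75, 7.84 and 7.88 in Torin1, and the groups overlapped throughout. The change was 0.05 ± 0.08 (adjusted p = 0.852), with a 95% interval from -0.15 to 0.24.

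The inhibitory SMADs, which occupy receptors and SMAD4 in place of signalling SMADs, were not called. Smad7, the inhibitor shared by the BMP and TGF-beta branches, read 8.30, 8.39 and 8.46 in DMSO and 8.68, 8.51 and 8.65 in Torin1. All 3 Torin1 values were above the DMSO values, by a gap of only 0.06. Its change was 0.23 ± 0.08 (adjusted p = 0.133); the unadjusted limma p was 0.0254 and the 95% interval ran from 0.04 to 0.43. Smad6, which acts mainly on the BMP branch, read 5.94, 5.59 and 5.68 in DMSO and 5.70, 5.89 and 6.08 in Torin1, with overlapping groups. It changed by 0.15 ± 0.13 (adjusted p = 0.608; 95% interval -0.16 to 0.46).

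The SMURF ligases, which mark SMADs and their receptors for breakdown, were not called either. Smurf1 read 6.57, 6.65 and 6.89 in DMSO and 6.72, 6.82 and 7.29 in Torin1, with Torin1 sample 3 the only value above all DMSO values. The change was 0.24 ± 0.16 (adjusted p = 0.472; 95% interval -0.15 to 0.63), and 0.07 ± 0.12 without Torin1 sample 3. Smurf2 read 7.55, 7.43 and 7.56 in DMSO and 7.59, 7.73 and 7.67 in Torin1. Its groups did not overlap, but the gap was 0.0225 and the change 0.15 ± 0.08 (adjusted p = 0.327; 95% interval -0.04 to 0.33).

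**Figure D2:**
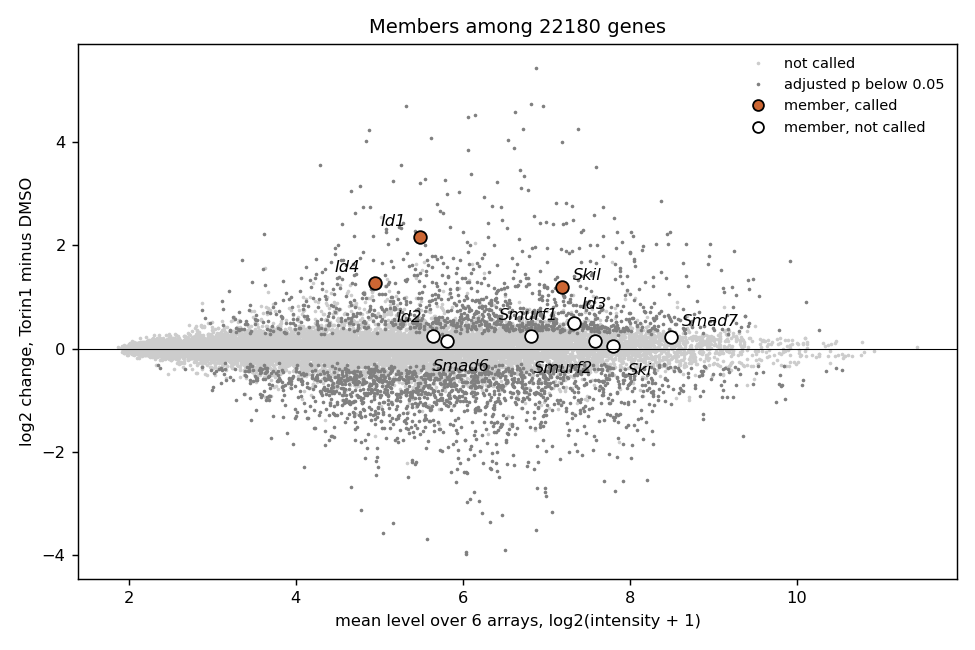
Log2 change (Torin1 minus DMSO) against the mean level over 6 arrays for 22180 genes, in light grey where not called and in dark grey where the adjusted p was below 0.05; circles are the 10 genes described, filled where called. Id1 (2.16), Id4 (1.28) and Skil (1.20) stand well above 0, and the other 7 lie between 0.05 and 0.49.

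The 3 calls did not depend on 1 array. With each array left out in turn, Id1 changed by 1.99 to 2.34 (adjusted p up to 0.00672), Skil by 1.165 to 1.256 (adjusted p up to 0.00349) and Id4 by 1.12 to 1.50 (adjusted p up to 0.0482). Id4 was the nearest to the threshold. None of the other 7 genes was called in any of these 6 fits, and Id2 alone turned its sign, without Torin1 sample 3.

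**Figure D3:**
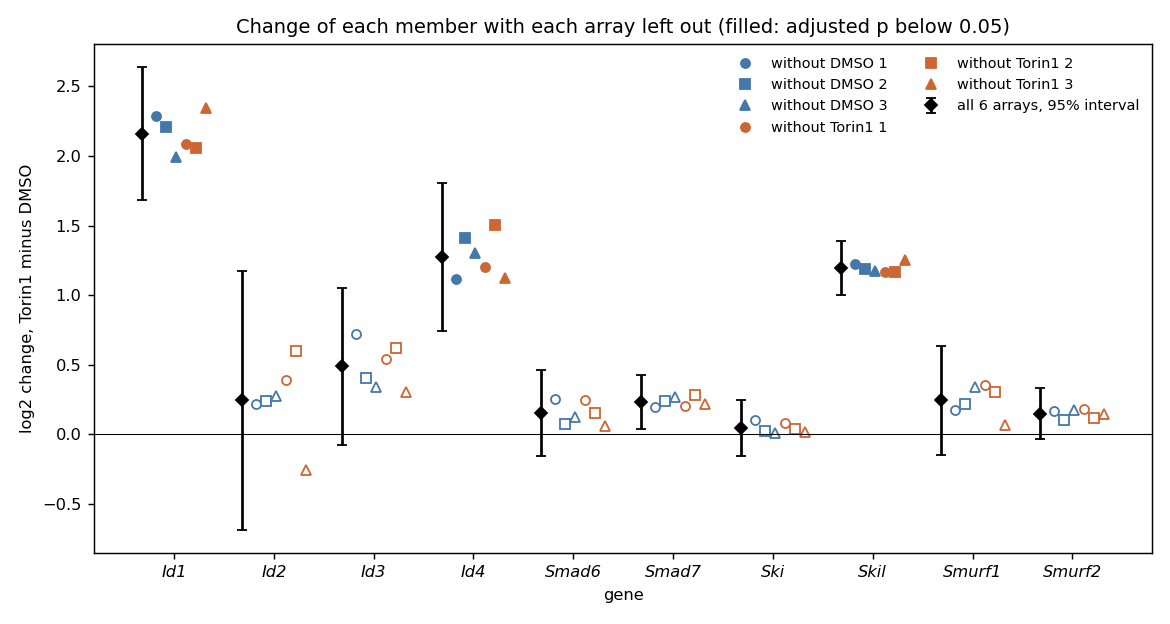
Log2 change (Torin1 minus DMSO) of each of the 10 genes from all 6 arrays (black diamonds, bars are 95% intervals) and with 1 array left out (coloured points, filled where the adjusted p was below 0.05). Id1, Id4 and Skil stay filled throughout, and Id2 falls to -0.26 without Torin1 sample 3.

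Related genes were compared within arrays, as the log2 difference between a pair, in 9 pairs. With 3 against 3 samples an exact permutation test cannot go below p = 0.1 (0.18 after adjustment over the 9 pairs), and 5 pairs reached that value. No share was computed over pairs of other genes, so this count has no background beside it. The pairs among the ID genes share genes and so are not separate results. The difference between Ski and Skil read 1.26, 1.16 and 1.16 in DMSO and -0.09, -0.01 and 0.22 in Torin1. It thus fell by 1.15 ± 0.10 (SE), with groups that did not overlap (two-sided exact permutation p = 0.1), so that the change was larger for Skil. Id1 gained 1.92 ± 0.73 over Id2 and 1.67 ± 0.40 over Id3, also without overlap (two-sided exact permutation p = 0.1 for each). Torin1 sample 3 lay nearest to DMSO in both: its Id1 minus Id2 value was -0.56, against 1.25 and 1.73 in Torin1 samples 1 and 2. Id4 gained over Id2 and Id3 by 1.03 ± 0.39 and 0.79 ± 0.42, again without overlap, plotted as Id2 minus Id4 and Id3 minus Id4, which moved down. The groups lay close in both. For Id2 minus Id4 the lowest DMSO value was 0.94 and the highest Torin1 value 0.88, that of sample 3. For Id3 minus Id4 these values were 2.35 and 2.18. The shift of Id3 minus Id4 was -0.39 without DMSO sample 1, where it was -0.79 from all arrays. Id1 and Id4 overlapped in their difference, which moved by 0.89 ± 0.48 (exact permutation p = 0.2), and by 0.55 without Torin1 sample 2. The pairs Id2 and Id3, Smad6 and Smad7, and Smurf1 and Smurf2 overlapped, with shifts of -0.24 ± 0.42, -0.08 ± 0.19 and 0.10 ± 0.19 (exact permutation p = 0.8, 0.7 and 0.8).

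**Figure D4:**
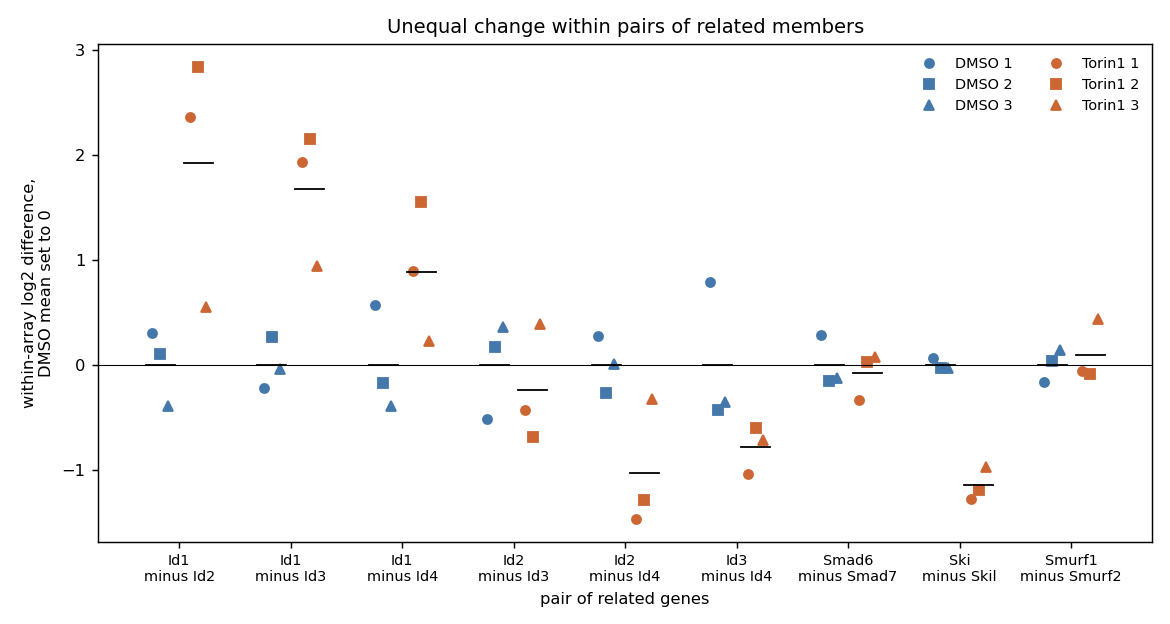
Within-array log2 difference between related genes, with the DMSO mean of each pair set to 0; points are arrays (blue DMSO, orange Torin1, shape for the sample number) and bars are means of 3. The differences Id1 minus Id2 and Id1 minus Id3 lie higher with Torin1, and Id2 minus Id4, Id3 minus Id4 and Ski minus Skil lie lower, without overlap between the groups; the other 4 pairs overlap.

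The genes whose profile over the 6 arrays lay nearest to that of Id1, by the root mean square difference of log2 values centred on each gene's mean and among the 11090 genes above the median level, were H2-Q10 (0.196), Slc23a2 (0.207) and Egr2 (0.232). H2-Q10 is a class I histocompatibility gene with close relatives that can share signal, Slc23a2 encodes an ascorbate transporter and Egr2 an early growth response factor. The size of the H2-Q10 change depended on the processing. It was 2.03 in the reported fit and ran from 0.996 to 2.08 over 9 alternative settings that left out no array, with the call kept. The nearest to Skil were Rhob (0.0422), which encodes a small GTPase, Nudt4 (0.0478) and Uhrf1bp1l (0.0791). Skil itself lay 0.602 from its own mean by this measure and Id1 1.11, so the distances for the 2 genes are not on a like scale. All 6 genes were called higher, between 1.15 and 2.03. A rise of this kind follows from the way they were picked, since the profiles of Id1 and Skil hold their own rise with Torin1.

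Around these 10 genes, the rest of the pathway moved in both directions. Of 131 other measured genes of ligands, receptors, SMADs, regulators, partners and targets, 20 were called higher, 13 lower and 98 were not called; 25.2% were called, beside 12.1% of all genes, and the median change was 0.10. These counts depend on single arrays: 10 to 13 genes were higher without Torin1 1 or any 1 DMSO array, and 24 higher and 19 lower without Torin1 3. The lists were chosen with earlier results of these data known. In most of these lists most measured genes lay above the median gene, whereas the 12.1% of all genes includes dim ones. With the dimmest 25% of genes left out 2785 were called, against 2678 over all genes, so the share among brighter genes exceeded 12.1%. No share was computed for genes of like level.

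Among 9 ligands of the TGF-beta and activin branch 2 rose and 3 fell. Inhba, the activin A subunit, rose from 6.87 ± 0.34 to 8.94 ± 0.32 (SD, n = 3 each; adjusted p = 0.00144) and Tgfb1 rose by 1.90 ± 0.36 (adjusted p = 0.0156), a call that did not hold without Torin1 1 or without any 1 of the DMSO arrays (adjusted p at most 0.0602). Tgfb3 fell by 1.98 ± 0.18 (adjusted p = 0.000787). Inhbb and Inha, for other inhibin and activin subunits, fell by 1.85 ± 0.43 and 0.42 ± 0.08 (adjusted p = 0.0337 and 0.0161); leaving out DMSO 2, DMSO 3 or Torin1 2 ended the call of Inhbb, and leaving out DMSO 1, Torin1 1 or Torin1 2 that of Inha (adjusted p at most 0.120 and 0.0572). Of 10 ligands of the BMP and GDF branch only Amh was called, lower by 1.17 ± 0.17 (adjusted p = 0.00616); Bmp2 joined it without Torin1 sample 3. The oocyte's own ligand genes Bmp15 and Gdf9 changed by 0.17 ± 0.09 and 0.12 ± 0.09 and were not called.

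Receptors were called in both directions. Of 7 type I receptor genes 2 rose and 2 fell: Tgfbr1 and Acvr1 rose by 0.75 ± 0.18 and 0.73 ± 0.15, and Acvrl1 and Bmpr1b fell by 1.16 ± 0.15 and 0.59 ± 0.15 (adjusted p = 0.0402, 0.0245, 0.00331 and 0.0482). Of 5 type II genes Amhr2, the receptor of anti-Müllerian hormone, fell by 3.997 ± 0.42 (adjusted p = 0.00162) and 4 were not called. The co-receptor gene Tgfbr3 (betaglycan) fell from 7.74 ± 0.12 to 5.48 ± 0.82 (SD, n = 3 each; adjusted p = 0.00877), 1 of 4 measured co-receptors. With arrays left out, Tgfbr1 was called in 1 of 6 fits (without Torin1 1), Bmpr1b in 1 (without Torin1 3) and Acvr1 in 2 (without Torin1 2 or 3), with adjusted p at most 0.129, 0.157 and 0.0825.

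Of 6 genes of signalling SMADs 2 rose, 1 fell and 3 were not called. Smad1 and Smad3 rose by 0.45 ± 0.09 and 0.48 ± 0.11 (adjusted p = 0.0187 and 0.0333), Smad9 fell by 0.48 ± 0.12 (adjusted p = 0.0490), and Smad2, Smad4 and Smad5 were not called. Each of the 3 calls was lost when some single arrays were left out: Smad1 without DMSO 1, DMSO 3 or Torin1 1 (adjusted p at most 0.0688), Smad3 in all fits but that without Torin1 1 (0.101) and Smad9 in all fits but that without DMSO 3 (0.113).

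Of 16 measured genes of other SMAD inhibitors 2 rose, 1 fell and 13 were not called, with a median of 0.27 (8 were higher with an unadjusted p below 0.05 and 2 lower). Without Torin1 sample 3 the count was 5 higher (with Bambi, Wwp1 and Ldlrad4 added) and 2 lower (with Tgif2 added), and without any 1 DMSO array it was 1 higher. Pmepa1, an activin- and TGF-beta-induced gene whose product sequesters SMAD2 and SMAD3, rose from 6.43 ± 0.19 to 7.83 ± 0.02 (SD, n = 3 each; adjusted p = 0.000444). Nedd4l, a ubiquitin ligase related to the SMURFs, rose by 0.63 ± 0.12 (adjusted p = 0.0186), a call lost without any 1 DMSO array (adjusted p up to 0.0664). Tob1, an antiproliferative SMAD-binding factor, fell by 0.51 ± 0.08 (adjusted p = 0.0100). Among 9 positive regulators only Axin1 was called, by 0.41 ± 0.11 (adjusted p = 0.0489), and it was called in none of the fits that leave out an array (adjusted p up to 0.139).

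Partners of the ID and SKI proteins were mostly not called. None of the 3 E protein genes, Tcf3, Tcf4 and Tcf12, was called in limma, and 0 of the 3 had an unadjusted p below 0.05. Tcf12 had the smallest p, with a change of 0.11 ± 0.10 (adjusted p = 0.633). Of 17 tissue-restricted bHLH genes, 3 of them above the median gene, Twist1 rose from 3.98 ± 0.15 to 5.41 ± 0.55 (SD, n = 3 each; adjusted p = 0.0132), a call lost without DMSO 3 (adjusted p = 0.0585), and Figla, an oocyte factor, rose by 0.38 ± 0.09 (adjusted p = 0.0339), a call held only without DMSO 2 or Torin1 3 (adjusted p at most 0.116). Among 4 measured partners of SKI and SKIL none was called in limma, and 1 had an unadjusted p below 0.05: Hdac1, a histone deacetylase gene (-0.72 ± 0.25, adjusted p = 0.133). Without Torin1 2 it was called (adjusted p = 0.0263). Of 11 transcription factors and coactivators that bind SMADs, Runx1 rose by 1.90 ± 0.08 (adjusted p = 5.5e-05), Ncoa3 rose by 0.33 ± 0.08 (adjusted p = 0.0366; called with arrays left out only without Torin1 3, adjusted p at most 0.121) and Foxo1 fell by 1.01 ± 0.10 (adjusted p = 0.00109). Without Torin1 sample 3 this list had 4 genes called higher, Ep300 and Crebbp being added.

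Other genes known as SMAD targets went both ways. Of 15 measured BMP targets other than the 10 genes, 5 rose, 2 fell and 8 were not called. Sox9, a transcription factor gene, and Grem1, a secreted BMP antagonist, rose by 2.80 ± 0.20 and 2.27 ± 0.08 (adjusted p = 0.000395 and 3.9e-05). Klf10, given below, rose too, as did the transcription factor genes Dlx2 and Hes1, by 0.63 ± 0.10 and 0.53 ± 0.11 (adjusted p = 0.00715 and 0.0218); the call of Hes1 held only when DMSO 3 or Torin1 3 was the array left out (adjusted p at most 0.0812). Nog, another secreted BMP antagonist, fell by 2.31 ± 0.19 and Hey2, a Notch-responsive repressor gene, by 1.69 ± 0.23 (adjusted p = 0.000566 and 0.00434). Of 20 measured TGF-beta and activin targets, a list that holds Skil and Smad7 themselves, 5 rose, 0 fell and 15 stayed without a call. In limma 8 were higher with an unadjusted p below 0.05, and 2 lower. Junb, Jun and Klf10, which growth factors also induce, rose by 2.75 ± 0.17, 2.03 ± 0.15 and 1.50 ± 0.18 (adjusted p = 0.000218, 0.000388 and 0.00298), beside Pmepa1 and Skil. Torin1 sample 3 weighed on this list: without it 7 genes were called higher, Fn1 and Tgfbi being added, and 4 lower (Ccn2, Snai2, Col1a1 and Tagln). In the fit to all genes and arrays the matrix genes among them were not called. Fn1 was at 1.67 ± 0.46 (adjusted p = 0.0631), and at 1.093 (adjusted p = 0.00878) without Torin1 sample 3. Tgfbi read 5.24, 5.23 and 8.33 in Torin1, so its change of 1.65 ± 0.78 became 0.616 without sample 3 (adjusted p = 0.00824). Col1a1 was at -0.30 ± 0.09 (adjusted p = 0.0898), and at -0.38 without that sample (adjusted p = 0.0265).

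**Figure D5:**
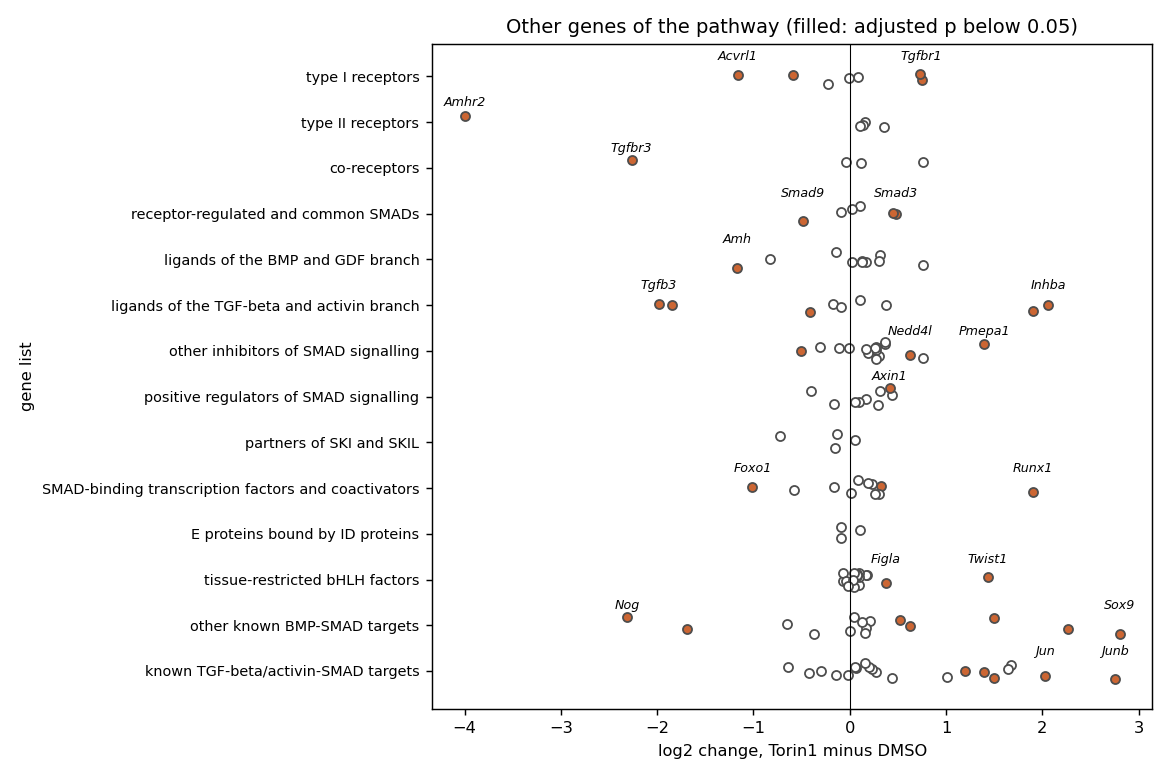
Log2 change (Torin1 minus DMSO) of the measured genes of each pathway list, 1 point per gene, filled where the adjusted p was below 0.05; up to 2 called genes per list are named and vertical scatter within a list has no meaning. Changes run from -3.997 (Amhr2) to 2.80 (Sox9), the E protein genes lie near 0, and the last list includes Skil and Smad7.

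Markers of other cell types were measured beside these results, since ID genes are also expressed outside the cumulus. The summed intensity of 7 endothelial markers was 111 to 117 in DMSO and 161 to 277 in Torin1, with 3 of 7 above the median gene; Cdh5 was called higher (2.33 ± 0.37), joined by Kdr without Torin1 sample 1, while the endothelial markers Tek, Emcn, Cldn5 and Tie1 lay below the median gene. That of 9 theca and stroma markers was 457 to 500 and 164 to 230, with 4 of 9 above the median gene and Acta2 and Pdgfra called lower (-2.87 ± 0.12 and -0.82 ± 0.08); without Torin1 sample 3 Col1a1 was called lower too and Hsd3b1 higher. For 8 macrophage and leukocyte markers it was 75 to 82 and 85 to 91, with Cd68 alone above the median gene (0.54 ± 0.11; a call kept only when Torin1 2 or Torin1 3 was the array left out, adjusted p at most 0.0681) and Ptprc below it. For 7 surface epithelium markers, 3 of them above the median gene, it was 167 to 182 and 123 to 165, and the only measured erythroid marker, Slc4a1, was below the median gene. A sum of intensities weighs the brightest genes most. Over the theca and stroma markers, of which Acta2 was the brightest, the median change was -0.10, with changes from -2.87 to 0.99. Over the endothelial markers the median change was 0.20, with changes from -0.03 to 2.33. The part of these markers in the rises of Id1, Id4 and Skil was not tested.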

How the data were processed

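RNA of 3 DMSO and 3 Torin1 samples was measured on 1 array each after amplification (NuGEN Ovation Pico WTA, per the labels' protocols), with groups taken from the titles. The deposited intensities, 1 per probe set and array, come from RMA, GCOS and version 1.1 of Affymetrix Expression Console, as the submitters' processing notes list them; their settings are not stated there. RMA imposes a common distribution on the arrays, so changes are relative. Values were linear (2.25 to 3268) and were taken as log2(intensity + 1). Of 41345 probe sets 23521 named 1 gene, giving 22180 genes; the brightest probe set stood for the 1082 genes with several. Symbols were checked against RefSeq (GRCm38.p6), with 23328 identifiers matched. Torin1 was compared with DMSO in limma 3.58.1 under R 4.3.3 (lmFit, eBayes, two-sided, no filter, Benjamini-Hochberg over all genes). The fit was tested on simulated data. The number of arrays limits the precision.

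The 10 genes, the gene lists and the motifs were chosen with earlier results of these data known. Genes named beside the 10 were up to 3 called genes with the largest change of each pathway list, or the smallest p where none was called, the brightest gene of each marker list and the 3 nearest profiles of Id1 and Skil. Bmpr1b, Inhbb, Dlx2, Hes1, Dppa3, Smad2, Smad4, Smad5, Bmp15, Gdf9, Tcf3, Tcf4, Hey2, Fn1, Tgfbi, Col1a1, Cdh5, Pdgfra, Tek, Emcn, Cldn5, Tie1, Ptprc, Bambi, Wwp1, Ldlrad4, Tgif2, Ep300, Crebbp, Bmp2, Kdr, Hsd3b1, Ccn2, Snai2 and Tagln were added after their values were seen. Among the brightest markers were Inha, at 10.5, Zar1, at 10.1, Pecam1, at 5.79, and Krt8, at 6.20. Alternatives covered the pseudocount, dim genes, scaling, probe sets, array weights, a replicate block, merging of Torin1 samples 2 and 3, and leaving out each array.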

Additional observations from a re-analysis of the deposited data

How the results depend on the processing

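Of the 10 genes, 3 were called higher (Id1, Id4 and Skil) and 0 lower in all 15 alternatives. The other changes of the 10 kept their direction, except that Id2 ran from -0.2562 without Torin1 replicate 3 to 0.6005 without Torin1 replicate 2. Over all genes 2678 were called; 1565 were called with the replicate number as a block, and 1518 to 3083 with 1 array left out. Deviations of same-numbered samples from their group means correlated at -0.207, -0.299 and -0.148, and no sample correlated best with its own number. The highest value between samples of different number was 0.31. Deviations within a group of 3 sum to 0, so these values constrain one another and cannot settle whether samples were paired. The block changed no call among the 10 genes. A pseudocount of 16 lowered the changes of Id1 and Id4 to 1.60 and 0.857, the lowest over the alternatives, and the shifts of Id2 minus Id4 and Id3 minus Id4 to -0.6397 and -0.4116. Pair shifts kept their sign, except Smad6 minus Smad7 (-0.1598 to 0.06017 over the leave-outs, above 0 without DMSO replicate 1 or Torin1 replicate 1) and Smurf1 minus Smurf2 (-0.0745 without Torin1 replicate 3 to 0.1882). Of the 44 other named genes that were called, 27 kept the call throughout and 17 lost it at least once. The lists gave 42 counts of called genes, by list and direction, each repeated in the 15 alternatives. Of these repeats 525 stayed within 1.5 times the reported count and 105 moved further. A count of 0 that stayed 0 is among the 525, which tests nothing. Since each of the 10 genes has 1 probe set, the mean over probe sets left their changes as reported and could not test them, and the alternative of taking each other probe set gave no value. Dim genes limit the size of the rises of Id1 and Id4, and the cause of the moves was not tested.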

Other observations

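Torin1 sample 3 was the highest Torin1 array for 6 of the 10 genes (Id2, Id3, Id4, Smad6, Ski and Smurf1) and the lowest for Id1 and Skil; it was the highest for 38.8% of all genes. Array weights estimated by limma were 0.436 for Torin1 sample 3 and 0.835 to 1.59 for the other arrays, and with these weights the change of Id2 was 0.003093 and that of Smurf1 was 0.107.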
